A study of Mus musculus with 4 samples.

Results

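The genes of the cytosolic ribosome were described in cultures of mouse dorsal root ganglia, which hold the cell bodies of sensory neurons together with their glia. Members were the gene rows whose symbol has the standard form of a ribosomal protein of the large (Rpl) or small (Rps) subunit, together with Rplp0, Rplp1, Rplp2 and Rpsa, with rows of a -ps symbol left out. This rule took 84 of 23282 rows, 52 of the large and 32 of the small subunit, and used no measured value. Each of the 84 symbols matched 1 gene of the GENCODE M21 annotation, and the genes lay on 19 chromosomes. The ganglia came from C57BL/6 embryos at embryonic day 13 and grew as explants on Matrigel-coated coverslips. All cultures were switched to myelination medium at 8 days in vitro (DIV). ES cultures received electrical stimulation for 1 h at 10 DIV (20 Hz, 50 mV/mm), control cultures received none, and RNA was taken at 11 or 19 DIV, 1 or 9 days after the stimulation. The 4 groups (control at 11 DIV, ES at 11 DIV, control at 19 DIV, ES at 19 DIV) had 1 library each, made from the pooled RNA of 3 explants.

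A ribosome joins a small subunit, which reads the mRNA, to a large subunit, which makes the peptide bonds. Each subunit holds ribosomal RNA and usually 1 copy of most of its proteins, so the genes are expressed at related levels in most cells and are among the most abundant mRNAs. In vertebrates most of these mRNAs begin with a run of pyrimidines, the 5′ terminal oligopyrimidine (TOP) tract, through which the growth kinase mTOR and the RNA-binding protein Larp1 control their translation and stability. In sensory neurons some of them are also carried into axons.

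The start sites of members that the results turn on are printed here because the TOP tract is the feature these genes are best known to share. Sequences are from RefSeq on GRCm38.p6 and run from 15 bases before to 15 bases into the transcript on the gene's own strand. Capitals mark a C followed by at least 5 bases that are C or T. The first 7 genes carried such a run. It was taken anywhere in the window, and among these it began from base -4 (Rpl27a and Rplp2) to base 7 (Rpl39) of the annotated start. A run found this way is therefore not shown to be a TOP tract, which begins the mRNA.
Rps26, chr10:128626492-128626521, minus strand: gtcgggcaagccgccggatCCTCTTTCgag
Rpl13a, chr7:45128731-45128760, minus strand: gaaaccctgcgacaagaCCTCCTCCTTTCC
Rpl27a, chr7:109519180-109519209, plus strand: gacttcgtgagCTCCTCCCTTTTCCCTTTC
Rpl39, chrX:37085208-37085237, minus strand: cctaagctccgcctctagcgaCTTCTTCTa
Rplp2, chr7:141447636-141447665, plus strand: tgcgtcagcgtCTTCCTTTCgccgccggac
Rps23, chr13:90923107-90923136, plus strand: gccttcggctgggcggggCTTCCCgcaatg
Rps6, chr4:86857353-86857382, minus strand: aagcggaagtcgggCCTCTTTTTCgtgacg
The other three, whose values are given in the comparisons that follow, had none in this window.
Rpl23, chr11:97782425-97782454, minus strand: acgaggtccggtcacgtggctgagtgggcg
Rpl5, chr5:107900513-107900542, plus strand: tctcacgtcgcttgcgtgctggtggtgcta
Rpl22, chr4:152325711-152325740, plus strand: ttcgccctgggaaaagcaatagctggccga

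A start sequence was found for 63 of the 84 members. Of these, 36 (57.1%) had such a run in the window of 1 or more annotated starts, against 25.5% of all 27025 genes with a sequence. In the 300 bases from 250 before to 50 after the start, the letters CCGGAAG, the core bound by ETS-family factors such as GABP, stood on either strand in 25 of 63 members (39.7%) and in 9.93% of all genes. The letters AAGATGGC, the core of the YY1 motif, stood on either strand in 6 of 63 members (9.52%) and in 3.19% of all genes. A match describes the letters in the window and is not a measured site.

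Total counts ran from 5782834 to 7830950 reads, and 3 reads, which a count of 0 still allows by counting error alone, corresponded to 0.376 to 0.518 CPM. CPM here means the count scaled to library size with TMM over the 4 libraries. The kit sequences from the 3′ end of each transcript, so values were not divided by length and the levels of different genes are set side by side as tag counts only. With 1 library per group no difference has a replicate check. Beside each fold stands a 95% interval computed on counts divided by the spread factor of the pair, 199 to 251, which is how far genes of 500 to 3000 reads scattered between those libraries relative to counting error. It describes the libraries compared, not the conditions. It also narrows as reads rise. How many of all genes tested had an interval excluding 1 is not given here, so counts of members by interval have no background beside them. Genes averaging 500 reads or more over the 4 libraries were tested, in the sense that the share past 1.5-fold was counted: 2963 genes in all, and 77 members (48 large, 29 small). Of the other 7 members, Rpl10l, Rpl39l and Rpl3l, copies known from testis or muscle, had 0 reads in every library, and Rps2, Rps27, Rpl21 and Rps4l had means of 397, 313, 149 and 204 reads. GENCODE lists Rps4l as a transcribed processed pseudogene, which the rule on symbols did not remove.

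Ribosomal protein mRNA took the largest share of reads in the control library at 11 DIV. All 84 members together held 4.67% of its reads (spread-adjusted interval 4.43 to 4.93). They held 3.88% (3.65 to 4.12) in the ES library of that day. The control library at 19 DIV had 3.08% (2.89 to 3.28) and the ES library 3.12% (2.94 to 3.31). By these intervals the 2 libraries of 19 DIV overlapped, the ES library at 11 DIV lay above both, and the control library at 11 DIV lay above all others. The intervals used the mean spread factor of the 4 pairs and took the members to scatter independently. Genes of 3000 reads or more had factors of 270 to 985, so the intervals may be too narrow. Those of the summed ratios below make the same assumption. The order describes these libraries only. The large subunit held 2.71, 2.20, 1.74 and 1.76% of the reads in control 11, ES 11, control 19 and ES 19, and the small subunit 1.96, 1.68, 1.34 and 1.36%. For the small subunit the intervals of control 11 (1.80 to 2.13) and ES 11 (1.53 to 1.85) overlapped. The large subunit's part of the members' summed CPM was 58.0, 56.7, 56.4 and 56.4%.

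**Figure D1:**
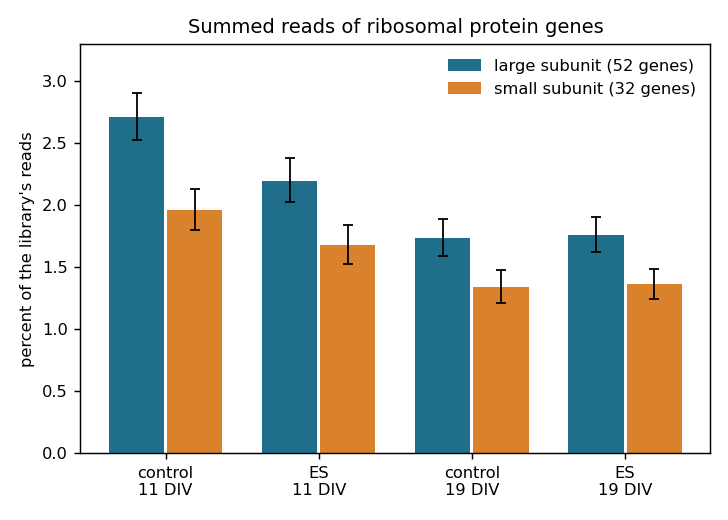
Percent of each library's reads held by the members of the large and the small subunit, with spread-adjusted 95% intervals, for the 4 libraries. Both subunits stand highest in the control library at 11 DIV (2.71 and 1.96%), and the 2 libraries of 19 DIV lie close together.

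Among single members the same library stood out. Of the 77 members tested, 58 had their highest CPM in control 11, 10 in ES 11, 3 in control 19 and 6 in ES 19, where the shares of all genes tested were 27.3, 22.1, 22.9 and 27.7%. The lowest value was in these libraries for 1, 8, 34 and 34 members, where the shares of all genes tested were 26, 24.5, 24.2 and 25.3%. Scaled by total counts instead, 45 members were highest in control at 11 DIV. With that library set aside, 54 members were highest in ES 11 (32.7% of all genes), 10 in control 19 (30.8%) and 13 in ES 19 (36.5%). Median CPM of the large subunit was 391, 311, 266 and 256 in control 11, ES 11, control 19 and ES 19, and that of the small subunit 510, 423, 307 and 297. The highest of the 4 values was under 1.5 times the lowest for 14 members, 1.5 to 2 times for 27 and at least 2 times for 36. The shares of all genes tested in these ranges are not given, so these counts cannot be read as particular to the members.

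**Figure D2:**
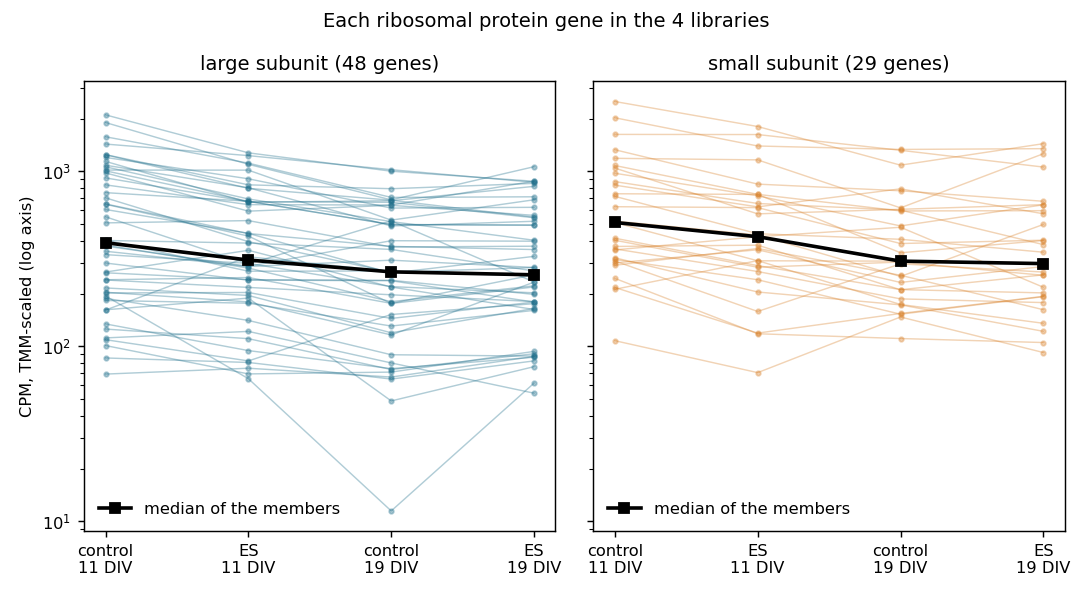
TMM-scaled CPM (log axis) of every tested member in each library, large and small subunit apart, with a thin line joining each gene's 4 values and black squares at the medians. The large subunit's medians are 391, 311, 266 and 256 and the small subunit's 510, 423, 307 and 297, from control 11 to ES 19, and single members cross that order.

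Other RNA also differed in the control library at 11 DIV. Rn45s, the ribosomal RNA precursor, took 5.18% of its reads and 2.65 to 3.08% in the other three. The metallothioneins Mt1 and Mt2 stood at 8456 and 9343 CPM there and at 657 to 1161 CPM elsewhere. The summed markers of Schwann and satellite glia were 4114, 7081, 11107 and 9087 CPM in control 11, ES 11, control 19 and ES 19 (8 of 8 genes found, Erbb3 and Fabp7 near 0). Fibroblast markers summed to 4946, 6712, 9347 and 13027 CPM in the same order (7 of 7 found), and sensory neuron markers to 2442, 3203, 3149 and 1254 (8 of 8 found, with Isl1 and Pou4f1 among those at 0 in some libraries). Endothelial markers summed to 25.2 to 48.3 CPM with Pecam1 and Tek at 0 throughout, macrophage markers to 56.3 to 114.6 with Aif1 at 0 throughout, and muscle markers to 0.2 to 2.6 with 4 of 5 genes at 0. The part of these differences in the ribosomal protein values was not tested. In such mixed cultures fewer cells of a type and less RNA per cell cannot be told apart.

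The first comparison asked what differed 1 day after stimulation. Ribosomal protein mRNA was lower in the ES library at 11 DIV than in its control. The ratio of summed CPM was 0.758 (0.701 to 0.820), 0.741 for the large and 0.782 for the small subunit. Of the 77 members 64 were below 1 by any amount, where 52.1% of all genes tested were. The median log2 difference was -0.39 in the large and -0.43 in the small subunit, against -0.05 over all genes tested. By the 1.5-fold rule 1 member was higher, 20 lower (11 large, 9 small) and 56 neither. Over all genes 26.6% passed the rule as higher and 28.2% as lower, so the members' count of lower genes was near the background while that of higher genes was under it. Scaled by total counts instead, 2 members were higher and 12 lower, and 13 were lower with Rn45s left out of the totals. The interquartile width of the members' log2 differences was 0.54, against 1.32 over all genes, which averaged fewer reads. Among those averaging 2000 reads or more it was 0.36 for 42 members and 0.88 for 564 genes. The part of read depth in this gap was not tested.

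Members are named by how far the nearer end of their interval lies from 1, so members with fewer reads can have a fold further from 1 and a wider interval. In the large subunit Rpl23 and Rpl22 came first below 1 in this order, while the lowest fold was that of Rpl7l1 (0.337, 0.0315 to 1.96). Rpl23, which sits where the subunits meet (chromosome 11, 97777527 to 97782437 in GRCm38), had 2103, 1276, 1002 and 878 CPM in control 11, ES 11, control 19 and ES 19. Its values at 11 DIV gave a fold of 0.607 (0.394 to 0.924). Rpl22, an RNA-binding protein that the ribosome can do without (chromosome 4, 152325742 to 152334071), had 1901, 1097, 687 and 1063 CPM in the same order, and its fold was 0.577 (0.363 to 0.905). These were the only 2 of 77 members whose interval excluded 1, and with the spread factor from genes of 3000 reads or more (480, chosen after seeing the data) neither did. In the small subunit the first in this order were Rps3, a protein of the mRNA entry channel, with 1044 CPM in control and 572 in ES (0.548, 0.284 to 1.02), and Rps20, of the head, with 2507 and 1804 CPM (0.719, 0.496 to 1.04). Rps26, which lines the mRNA exit, stood at 1187 and 1163 CPM (0.980, 0.594 to 1.62), Rps29 at 1626 and 1623 CPM, and Rpl27a at 1017 and 1016 CPM. Rpl34 was the 1 member past 1.5-fold higher, with 161 CPM in control and 325 in ES (2.02, 0.609 to 7.88), and the row of its pseudogene Rpl34-ps1 held 565 and 709 reads beside the 933 and 1924 of Rpl34.

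The same contrast at 19 DIV, 9 days after stimulation, used the other 2 libraries. Here the interval of the summed ratio included 1, at 1.02 (0.931 to 1.11), with 1.02 for each subunit alone. The median log2 difference was 0.01 in the large and -0.06 in the small subunit, against 0.03 over all genes. Below 1 were 38 of 77 members, against 48.7% of all genes. By the 1.5-fold rule 6 members were higher, 5 lower and 66 neither (26.4% and 24.9% of all genes). Rps26 came first above 1 by the nearer interval end, at 618 CPM in control and 1261 in ES (2.04, 1.17 to 3.70), and the 1 member whose interval excluded 1, also with the larger spread factor of 270. Its value in control at 19 DIV was the low one, since the other three libraries lay between 1163 and 1261 CPM. By the same order Rpl22 had 687 and 1063 CPM (1.55, 0.884 to 2.78), Rpl4, a protein of the exit tunnel, 642 and 879 CPM (1.37, 0.754 to 2.55), and Rps20 1085 and 1439 CPM (1.33, 0.839 to 2.12). The other members past 1.5-fold higher were Rpl7l1 (5.38), Rpl22l1 (2.002, 0.518 to 9.99), Rps15 (1.98, 0.806 to 5.40) and Rpl12 (1.57, 0.142 to 32.0), with intervals that included 1. Lowest by fold were Rpl6 with 521 CPM in control and 233 in ES (0.448, 0.168 to 1.10) and Rps21 with 479 and 218 CPM (0.454, 0.163 to 1.16). Rpl41 (1022 and 866 CPM) and Rps29 (1319 and 1058 CPM) were at 0.847 (0.497 to 1.44) and 0.802 (0.4996 to 1.28).

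The members' differences at 11 and at 19 DIV, which share no library, had a Pearson r of -0.16 over the 77 genes, given as a description. Rpl6 was below 1 at both days, with 550 and 296 CPM in control and ES at 11 DIV (0.538, 0.208 to 1.30). Rpl22 and Rps20 were below 1 at 11 DIV and above 1 at 19 DIV.

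Of the 4 comparisons, the control libraries of the 2 days had the lowest summed ratio. In control cultures the ratio of summed CPM at 19 against 11 DIV was 0.602 (0.553 to 0.654), 0.585 for the large and 0.624 for the small subunit. Below 1 were 72 of 77 members, against 50.7% of all genes. Median log2 differences were -0.61 in the large and -0.78 in the small subunit, with -0.01 over all genes. By the 1.5-fold rule 1 member was higher (28.3% of all genes), 45 lower (27 large, 18 small, against 27.8%) and 31 neither. Rpl5, which with Rpl11 carries the smallest ribosomal RNA into the large subunit and binds Mdm2 when free, had 648, 427, 176 and 218 CPM in control 11, ES 11, control 19 and ES 19. It was 0.271-fold at 19 against 11 DIV in control (0.0851 to 0.729). Its gene lies on chromosome 5 from 107900502 to 107909005. Rpl22 was at 0.361 (0.209 to 0.605), Rps20 (chromosome 4, 3831334 to 3835665) at 0.433 (0.279 to 0.660), Rpl23 at 0.476 (0.299 to 0.746) and Rps26 (chromosome 10, 128624534 to 128626747) at 0.521 (0.282 to 0.938).

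Intervals below 1 were found for 15 of the 77 members, 11 large (among them Rpl5, Rpl8, Rpl13a, Rpl22, Rpl23, Rpl26, Rpl27a, Rpl37, Rpl39 and Rplp1) and 4 small (Rps14, Rps15a, Rps20 and Rps26), and above 1 for none. Without the share over all genes, this count cannot be read as particular to the members. With the spread factor from genes of 3000 reads or more (985) the interval of none of these 15 excluded 1. Members above 1 were Rpl34 (161 and 268 CPM, 1.66, 0.472 to 6.97), Rps21 (356 and 479 CPM, 1.35, 0.565 to 3.38), Rpl11, Rps19 and Rpl38. Next to these, Rpl6 (550 and 521 CPM) was close to 1, at 0.948 (0.444 to 2.04). This comparison shares the control library of 11 DIV with the first, so their values are given side by side and not set against each other.

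In ES cultures, which share no library with the control pair, the ratio at 19 against 11 DIV was 0.808 (0.737 to 0.886), 0.803 for the large and 0.814 for the small subunit. Below 1 were 61 of 77 members, against 48.2% of all genes, with a median log2 difference of -0.32 in each subunit and 0.05 over all genes. By the 1.5-fold rule 3 members were higher, 17 lower (8 large, 9 small) and 57 neither (29.4% and 25.9% of all genes). No member's interval excluded 1. Rpl13a, which also acts outside the ribosome in silencing inflammatory mRNAs, had 1576, 1114, 710 and 715 CPM in control 11, ES 11, control 19 and ES 19. In ES it was at 0.642 (0.350 to 1.17), and the 2 libraries of 19 DIV were close to each other. Rps23, of the decoding centre, had 738 CPM at 11 and 402 at 19 DIV (0.545, 0.243 to 1.19), Rpl23 1276 and 878 (0.688, 0.396 to 1.19) and Rps29 1623 and 1058 (0.652, 0.398 to 1.06). Rpl4 had 645 and 879 CPM (1.36, 0.705 to 2.73), Rps26 1163 and 1261 (1.08, 0.651 to 1.83) and Rps9 1396 and 1348 (0.966, 0.599 to 1.57). Among the 3 members past 1.5-fold higher were Rpl11 (82.6 and 175 CPM, 2.12, 0.363 to 22.7) and Rps6 (119 and 193 CPM, 1.62, 0.341 to 10.7). Rpl13 stood at 665 and 821 CPM, but its counts lay within 5% of those of Pcdhga9 in every library, so its value is uncertain. Over the 77 members the 2 day comparisons had a Pearson r of 0.21, as a description.

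**Figure D3:**
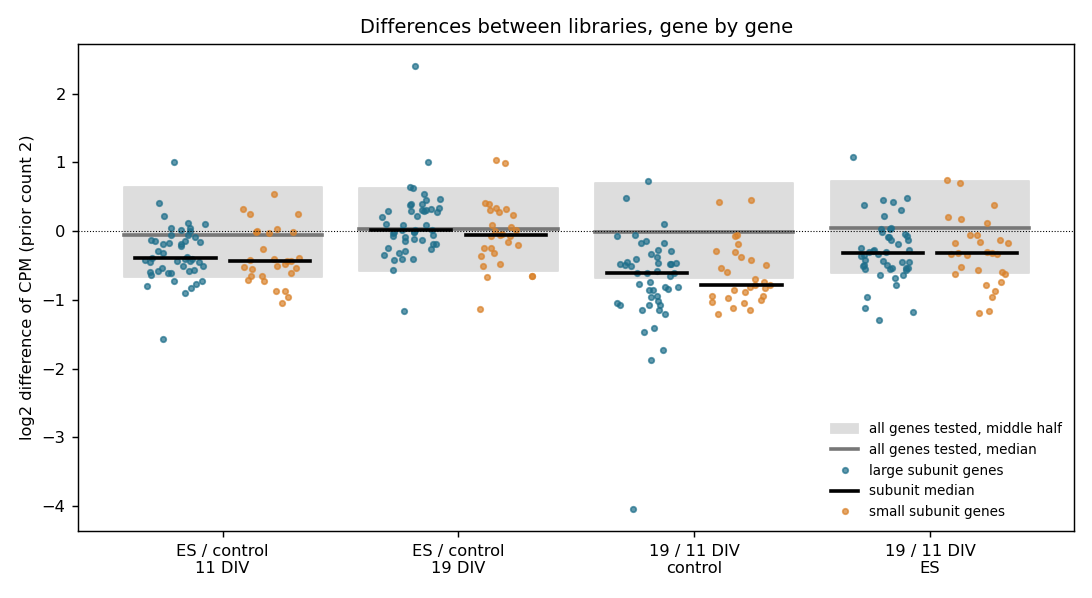
Log2 differences of every tested member in the 4 comparisons of 2 libraries, by subunit, with black lines at the subunit medians and, in grey, the median and interquartile range of all 2963 genes tested. Most members lie below 0 in the ES against control pair at 11 DIV (medians -0.39 and -0.43) and in both day pairs, and around 0 in the ES against control pair at 19 DIV.

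Among the 42 members averaging 2000 reads or more, 40, 21, 40 and 35 were below 1 in the 4 comparisons in the order given above, against 59.0, 46.6, 56.0 and 50.2% of the 564 genes of that abundance. Their median log2 differences were -0.46, 0.00, -0.78 and -0.35, beside -0.16, 0.04, -0.13 and 0.00 for those genes.

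**Figure D4:**
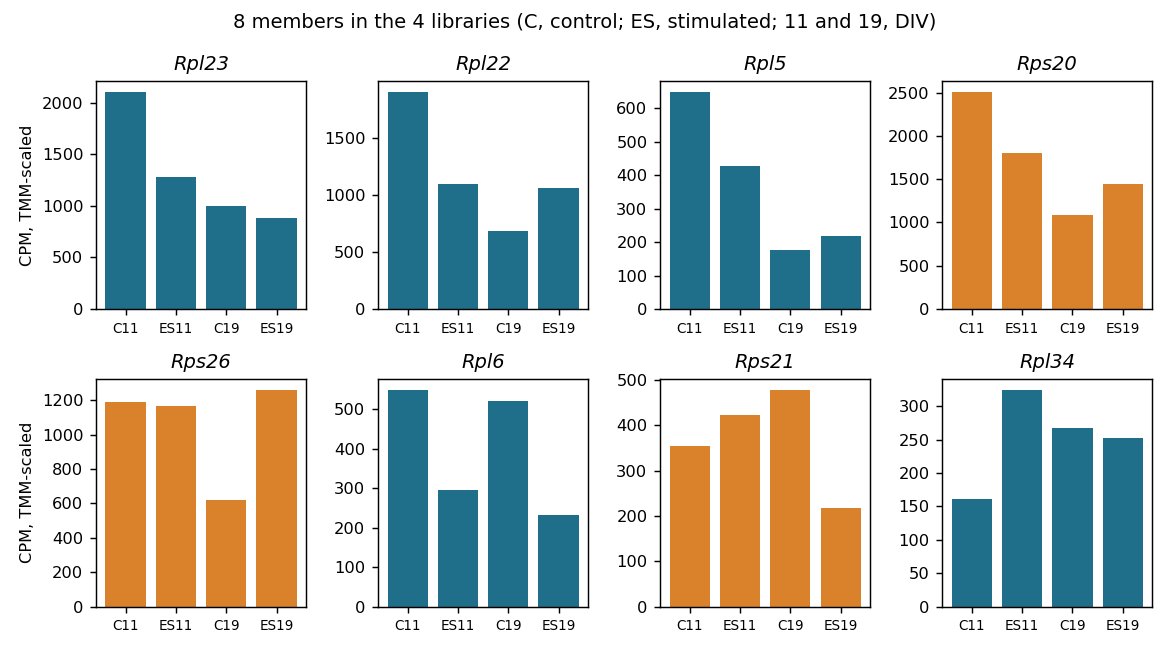
TMM-scaled CPM of 8 members in the 4 libraries as bars, 1 library each, with a separate axis from 0 for each gene and no error bars. Rpl23, Rpl22, Rpl5 and Rps20 are highest in control at 11 DIV, Rps26 is low in control at 19 DIV only (618 CPM), Rpl6 is low in both ES libraries, and Rps21 and Rpl34 follow neither order.

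By role, the values were as follows, with no test between roles. Of the acidic stalk that recruits the translational GTPases, Rplp0 had 917, 671, 665 and 543 CPM in control 11, ES 11, control 19 and ES 19, Rplp1 1201, 907, 617 and 623, and Rplp2 1246, 837, 796 and 854. All 3 were highest in control at 11 DIV. A row for the pseudogene Rplp2-ps1 held 17363, 13272, 14331 and 14715 reads, more than the 7220, 4960, 5485 and 6816 of Rplp2 itself, so the level of Rplp2 is uncertain. Rpl3, Rpl8 and Rpl10, near the catalytic centre, were listed with Rpl10a, which lies away from it. These 4 had a median log2 difference of -0.999 in control at 19 against 11 DIV, and 3 were past 1.5-fold lower. Rpl10a was the exception, at 0.889. Rpl10 stood at 605, 442, 262 and 327 CPM. Around the exit tunnel (8 members) 4 were past 1.5-fold lower in that pair, among them Rpl39 at 706, 397, 265 and 282 CPM. All 6 members along the decoding centre and mRNA path (among them Rps14, Rps15, Rps23, Rps26 and Rps28) were past it, with a median of -0.90. In that pair 27.8% of all genes tested and 58.4% of all members tested were past 1.5-fold lower.

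Single roles varied more. Rps6, the substrate of the S6 kinases, had 217, 119, 154 and 193 CPM, and its folds of 0.548 at 11 DIV and 1.253 at 19 DIV had intervals of 0.105 to 2.35 and 0.332 to 5.25. Rps27a, made as a fusion with ubiquitin, had 720, 440, 409 and 345 CPM. Rpsa, also called the laminin receptor, had 321, 204, 173 and 122 CPM, below 1 in ES against control at both days with intervals that included 1. Rpl11, the partner of Rpl5, had 109, 82.6, 152 and 175 CPM, at 489 to 1400 reads. It was higher at 19 than at 11 DIV where Rpl5 was lower, and its interval in control was 0.267 to 9.14. In ES against control Rpl5 and Rpl11 went the same way, at 0.658 and 0.757 at 11 DIV and 1.24 and 1.15 at 19 DIV. These intervals included 1. Rps19, a gene mutated in Diamond-Blackfan anaemia, had 108, 70.7, 147 and 92.2 CPM. The 4 X-linked members, Rpl10, Rpl36a, Rpl39 and Rps4x, had medians of -0.49, 0.01, -1.09 and -0.46 in the 4 comparisons.

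Some members are copies of another. Rpl22l1, the paralog of Rpl22, had 0.107, 0.164, 0.169 and 0.219 reads per read of Rpl22 in control 11, ES 11, control 19 and ES 19. Rpl36al had 1.27, 1.24, 0.920 and 1.02 reads per read of Rpl36a. Rpl7l1, which assists assembly of the large subunit, had 194, 65.3, 11.5 and 61.6 CPM, and its ratio to Rpl7 was 0.480, 0.243, 0.0425 and 0.241, on 79 reads in control at 19 DIV. Rps27l, a p53 target, had 4.39, 8.35, 4.29 and 6.40 reads per read of Rps27. Rps27 averaged only 313 reads, and a row for its copy Rps27rt held 2042, 1743, 1827 and 1950 reads. Whether those belong to Rps27 was not tested, so the level of Rps27 and this ratio are uncertain. Rps4l had 0.0250, 0.121, 0.140 and 0.214 per read of Rps4x. Within each pair the intervals of the 4 libraries overlapped.

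**Figure D5:**
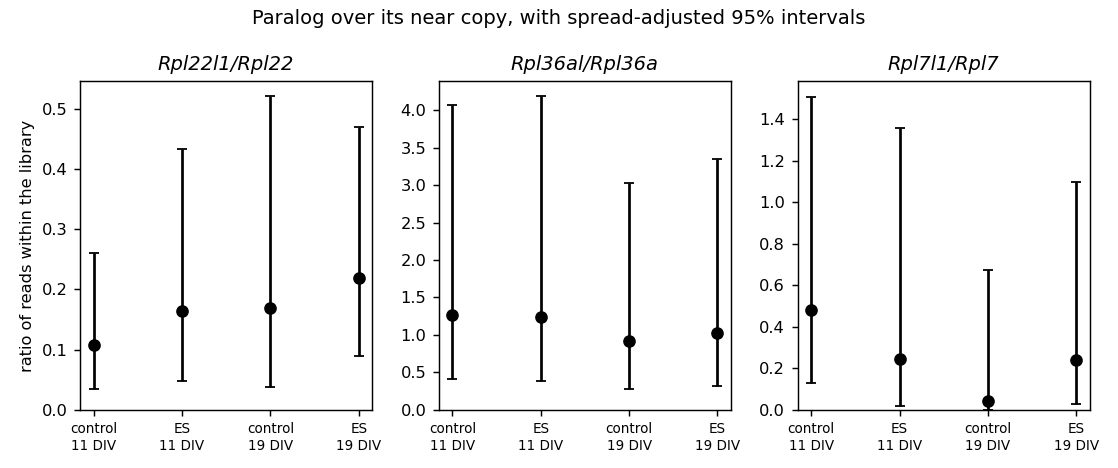
Reads of 3 paralogs (Rpl22l1, Rpl36al and Rpl7l1) divided by the reads of the gene each resembles, in the 4 libraries, on linear axes with spread-adjusted 95% intervals. The intervals of the 4 libraries overlap within each pair, and Rpl7l1 over Rpl7 is lowest in control at 19 DIV (0.0425).

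Ribosomal proteins whose symbols fall outside the naming rule were compared with the members. Gnb2l1, now called Rack1, had 1037, 592, 472 and 576 CPM, and was at 0.4548 (0.227 to 0.878) in control at 19 against 11 DIV. Fau, a fusion that gives a small subunit protein, had 404, 331, 379 and 257 CPM (0.938, 0.381 to 2.34).

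Other genes known to carry a TOP tract were compared next, as most ribosomal protein mRNAs are known to carry one. Of 22 listed, 19 were tested, with median log2 differences of -0.33, 0.03, -0.44 and -0.26 in the same 4 comparisons. Past 1.5-fold lower were 4, 4, 9 and 6 of them, and higher 4, 3, 2 and 4. Of all genes tested, 28.2, 24.9, 27.8 and 25.9% were past it as lower and 26.6, 26.4, 28.3 and 29.4% as higher. Tpt1, a small growth-related protein, had 4135, 2675, 1928 and 2137 CPM, Eef2, the elongation factor that moves the ribosome along, 2393, 2413, 2244 and 1909, and Vim, the intermediate filament of mesenchymal cells, 2827, 4250, 4961 and 4935. Of 50 ribosome biogenesis genes 17 were tested, with medians of -0.54, 0.02, -0.91 and 0.35, with 8, 1, 9 and 3 past 1.5-fold lower and 1, 4, 2 and 7 higher. Ncl, nucleolin, had 1161, 819, 586 and 928 CPM, Npm1, nucleophosmin, 604, 459, 268 and 270, and Bysl, a small subunit assembly factor, 223, 166, 496 and 476. Of 16 regulators of ribosome genes 6 were tested, with medians of -0.07, 0.52, -0.07 and 0.27. Sp1 stood at 266, 290, 211 and 302 CPM, Eif4ebp1, the translation repressor that mTOR phosphorylates, at 186, 152, 33.2 and 309, and Max, the partner of Myc, at 108, 175, 265 and 80.4.

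Lastly, one fit over all 4 libraries treated ES and day as additive factors (edgeR quasi-likelihood test, Benjamini-Hochberg adjustment, 1 residual degree of freedom). It tested 10050 genes, among them 81 members. No gene passed an adjusted p of 0.05 for ES (0% called) or for day (0% called), and 109 and 202 genes had an unadjusted p under 0.05. Of the members, Rpl6 did so for ES, and Rps23 and Rpl5 for day. The members' median log2 fold change was -0.17 for ES (57 of 81 below 0) and -0.53 for day (72 of 81 below 0), against -0.07 for each over all genes tested. DESeq2 on the same design tested 12884 genes, among them 81 members. For ES it called 409 of these genes, among them 1 member (Rpl6). For day it called 713, among them 8 members (Rpl23, Rps23, Rpl37, Rpl8, Rpl12, Rpl5, Rpl13a and Rpl27a). limma with voom called none for either.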

How the data were processed

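RNA was measured in 4 libraries of dorsal root ganglion explants, 1 per group. The authors deposited unnormalised counts of reads for each gene symbol, in a table per library. The tools and build named were Bowtie2, bedtools and mm10, per the submitters' processing notes. Not given in the sources used here are versions, annotation, strand and the handling of duplicates or reads with several matches, and overlapping, antisense and near-identical genes cannot be told apart. Counts were scaled with TMM over the 4 libraries (edgeR 4.0.16, R 4.3.3). Log2 differences used a prior count of 2. Clopper-Pearson intervals at 95% covered counting error, after division by the spread factor of the pair. For shares of reads the mean factor of the 4 pairs was used. The factor came from 2647 genes of 500 to 3000 reads. An added factor came from 316 genes of at least 3000 reads. limma 3.58.1, DESeq2 1.42.0, matplotlib 3.10.9, numpy 2.4.6, scipy 1.17.1 and pandas 2.3.3 in Python 3.11.15 were also used, and the scripts were tested on simulated data. Positions came from GENCODE M21 on GRCm38, the assembly of mm10.

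The named genes were, per comparison, the 2 large and 2 small members whose nearer interval end lay furthest above 1 and the 2 and 2 furthest below it. To these came the 3 members of each subunit with the highest mean CPM, members of role lists, members under 500 mean reads, Fau and Gnb2l1, and up to 3 genes of each other list by mean CPM. Members named for intervals that exclude 1, other members named for being past 1.5-fold, and the pseudogene rows were named after their values were seen. A few genes chosen by this rule are left out of the text. The members and lists were chosen with earlier results of these data known. Alternatives were other scalings, count minimums, fold limits, prior counts, thinning to 5782834 reads, added pseudogene rows and other tools.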

Additional observations from a re-analysis of the deposited data

Results flagged for a closer look

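The large subunit's median log2 difference between ES and control was -0.393 at 11 DIV and 0.015 at 19 DIV. Its sign differed between the days, but the value at 19 DIV lay at equality and changed sign with the processing. The difference between the days was not tested, since each contrast compares 1 library with 1 library. For Rpl22 the fold of ES over control was 0.577 at 11 DIV and 1.55 at 19 DIV. For Rpl7l1 it was 0.337 and 5.38. Neither difference between the days was tested, and the second value of Rpl7l1 rests on 79 reads in control at 19 DIV.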

How the results depend on the processing

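Direction of the subunit medians did not reverse for the comparisons with a median away from 0. Across the alternatives the large subunit's median lay between -0.501 and -0.261 in ES against control at 11 DIV, -0.805 and -0.479 in control 19 against 11 DIV, and -0.452 and -0.305 in ES 19 against 11 DIV. For the small subunit the ranges were -0.452 to -0.297, -0.797 to -0.647 and -0.334 to -0.299. In ES against control at 19 DIV the medians lay around 0 and changed sign (-0.009 to 0.052 and -0.071 to 0.026).

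Counts of members past the fold limit moved with the limit itself, by construction. In ES against control at 11 DIV, ES against control at 19 DIV, control 19 against 11 DIV and ES 19 against 11 DIV, higher and lower together, 3, 5, 19 and 6 passed 2-fold. With a minimum of 2000 mean reads 13, 6, 29 and 9 of 42 members passed 1.5-fold. Of these, 0, 3, 0 and 0 were higher and 13, 3, 29 and 9 lower. Of the 564 genes of that abundance, 15.6, 16.5, 20.4 and 18.8% passed as higher and 23.8, 12.9, 29.4 and 17.4% as lower. With a lower limit, a ratio of 5 to 4, 49, 30, 64 and 46 of the 77 members passed. For 2-fold and for 5 to 4 the shares of all genes are not given, so those counts have no background beside them. With the interval also excluding 1 the counts were 2, 1, 15 and 0, and with the factor from genes of at least 3000 reads, an alternative chosen after seeing the data, 0, 1, 0 and 0. Adding the pseudogene rows gave the large subunit 3.05, 2.49, 1.995 and 2.003% of the reads in control 11, ES 11, control 19 and ES 19. DESeq2 called 1 of 81 members for ES and 8 for day, beside 409 and 713 of 12884 genes. The cause of the gap to edgeR was not tested. Under other scalings and with pseudogene rows, 657 values of named folds stayed within the counting interval and 175 moved beyond it. Of these 832 values, 33 lay on the other side of 1, and they belonged to 17 of 208 folds, none with a spread-adjusted interval excluding 1. No paired analysis was possible because each group had 1 library and the labels carry no replicate numbers. Leaving out a library left the additive fit with 0 residual degrees of freedom. What limits these values is that 1 library stands for each group and that reads scatter between libraries far beyond counting error.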

Other observations

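Rows of ribosomal protein genes or their copies outside the naming rule held many reads. Rpl37rt had 20362, 11884, 12913 and 13629 reads in control 11, ES 11, control 19 and ES 19, more than Rpl37 in every library (6153, 4119, 3559 and 3225). Rps27rt had 2042, 1743, 1827 and 1950 reads, against 383, 257, 409 and 202 of Rps27. Rps3a1, the gene of a small subunit protein that the rule did not take, had 3698, 1559, 1961 and 2002 reads. For Rpl37rt and Rps27rt, whether the reads came from the copy or from the parent gene was not tested.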
